A study of Mus musculus with 15 samples.

Results

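The genes described are 8 transcription factors of the kidney tubule, Hnf4a, Esrrg, Nr1h4, Pax2, Pax8, Sox9, Sox4 and Klf6. They were taken by symbol from a table of 56748 genes measured in 15 mouse RNA libraries, and each symbol matched 1 row. The rule uses no measured value, but the genes were chosen with earlier results of these data known. Hnf4a, Esrrg and Nr1h4 encode nuclear receptors of differentiated nephron epithelium. Pax2 and Pax8 encode paired-box factors that specify kidney epithelium. Sox9, Sox4 and Klf6 encode factors known for their induction after epithelial injury.

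The libraries came from poly(A)-enriched RNA of whole kidney or lung of wild-type mice, 3 per group, and by the study's methods the animals were male C57Bl/6. WTK kidneys received vehicle in place of folic acid, and their label gives no antibody. IgGK kidneys were injured with a single folic acid injection of 200 mg/kg and treated with control IgG, and LepK kidneys with the same injury received LepAb, a human monoclonal antibody that neutralizes leptin. By the methods these mice were 10 to 12 weeks old. The antibodies were given every other day from day 1, for a period that ended before kidneys were taken at day 28. For this kidney model the methods give a range of antibody doses, from 1 to 20 mg/kg, and do not say which dose these libraries had. The study's results state that 10 mg/kg was chosen for its later experiments. IgGL and LepL lungs came from mice aged 12 weeks that had received intratracheal bleomycin at 1.5 units/kg, the same antibodies at 10 mg/kg, and were taken at day 14. No lung without bleomycin was analysed here, so the lung groups show the antibody comparison and not the injury. The labels do not say whether the 3 libraries of a group were separate animals. The study's text counts the lung samples of a group as mice and does not name the unit for kidney. There p-values measure the spread between libraries, which may not be that between animals. Counts of kidney libraries of the same group differed by more than read sampling alone would give, with a mean chi-square per gene of 7.149 to 29.56.

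Nephron identity depends on a layered set of factors. PAX2 and PAX8 act early, in the epithelium that forms nephrons, and PAX8 stays on in mature tubules. HNF4A drives the transporter and metabolic program of the proximal tubule, where NR1H4, the bile acid receptor FXR, is also active, and ESRRG controls mitochondrial and transport genes in several tubule segments. After damage, surviving tubule cells switch on SOX9 and lose differentiated transcripts for a time, and SOX4 and KLF6 are induced in stressed or injured epithelium, though macrophages, fibroblasts and other cells also make SOX4 and KLF6. In whole tissue, fewer cells of a type and less RNA per cell cannot be told apart.

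The deposited table places all 8 genes on GRCm39. Hnf4a spans chr2:163348728-163414830, Esrrg chr1:187340988-187947082, Nr1h4 chr10:89290096-89369447 and Pax2 chr19:44744484-44826310. Pax8 spans chr2:24310572-24365611, Sox9 chr11:112673050-112678586, Sox4 chr13:29132902-29137696 and Klf6 chr13:5911481-5920393. Nr1h4, Pax8 and Sox4 lie on the minus strand and the others on the plus strand.

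Start-site sequences were available from RefSeq (GRCm38.p6) for 7 of the 8 genes, all but Sox9, and they are shown here for 2 genes that fell and 2 that rose in injured kidney. The 250 bases before each start are printed 5′ to 3′ on the gene's own strand, and capitals mark a match to any of 6 short motifs searched on both strands. The motifs were GTTAAT, the nuclear receptor half-site AGGTCA, the estrogen-related receptor form AAGGTCA, which contains AGGTCA, the SOX core AACAAT, the GC box GGGCGG and the TATA box TATAAA. Hnf4a is shown for the second of its 2 listed starts, chr2:163546905-163547154 on the plus strand, Nr1h4 for chr10:89506659-89506908 on the minus strand, Sox4 for chr13:28953700-28953949 on the minus strand and Klf6 for chr13:5861239-5861488 on the plus strand.
Hnf4a: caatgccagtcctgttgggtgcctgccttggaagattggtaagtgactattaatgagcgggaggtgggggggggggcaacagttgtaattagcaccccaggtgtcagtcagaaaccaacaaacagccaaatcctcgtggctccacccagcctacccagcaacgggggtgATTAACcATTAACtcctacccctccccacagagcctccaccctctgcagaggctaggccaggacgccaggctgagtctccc
Nr1h4: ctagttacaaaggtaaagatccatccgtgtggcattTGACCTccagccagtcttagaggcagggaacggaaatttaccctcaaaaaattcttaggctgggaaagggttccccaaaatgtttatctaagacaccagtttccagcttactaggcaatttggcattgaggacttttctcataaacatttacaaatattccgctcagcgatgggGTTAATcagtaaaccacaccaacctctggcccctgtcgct
Sox4: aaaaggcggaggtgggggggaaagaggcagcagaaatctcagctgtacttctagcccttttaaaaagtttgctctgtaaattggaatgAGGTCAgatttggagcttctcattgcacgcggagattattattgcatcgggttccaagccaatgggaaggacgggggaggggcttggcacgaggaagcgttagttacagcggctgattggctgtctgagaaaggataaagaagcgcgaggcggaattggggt
Klf6: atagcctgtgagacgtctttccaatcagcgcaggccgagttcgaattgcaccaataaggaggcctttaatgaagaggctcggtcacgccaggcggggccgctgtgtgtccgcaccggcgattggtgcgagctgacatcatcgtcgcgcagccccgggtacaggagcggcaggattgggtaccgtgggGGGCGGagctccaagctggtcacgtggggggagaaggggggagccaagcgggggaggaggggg

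The capitals show that the Hnf4a window held GTTAAT at 2 places, -81 to -76 and -74 to -69 from the start, both on the opposite strand, and that the Nr1h4 window held it at -40 to -35. Of 32851 RefSeq start windows of the same length, 6.43% held this motif. The Nr1h4 window also held a nuclear receptor half-site at -214 to -209 and the Sox4 window 1 at -162 to -157, a motif found in 14% of all windows. The Klf6 window held a GC box at -63 to -58, found in 32.7% of windows, as did windows of Hnf4a (its other start), Esrrg, Pax2 and Pax8. No window of the 7 genes held the SOX core or AAGGTCA, which were in 9.42% and 4.08% of all windows, and 1 of the 4 Esrrg windows held the TATA box, found in 12.4%. A match describes the letters of the window and no binding was measured.

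The 15 libraries held 25913969 to 38924788 counts each. Mitochondrial genes took 9.41 to 9.62% of counts in WTK, 5.85 to 6.27% in IgGK, 8.01 to 9.65% in LepK and 1.19 to 2.09% in lung, so that groups differed in composition. IgGK replicates 1 and 2 carried adrenal cortex transcripts, with 2266 and 3602 counts of Cyp11b1 against 39 in IgGK replicate 3 and 0 to 2 in the other kidney libraries. LepK replicate 2 held 20786 counts of the liver transcript Alb, against 70 to 2588 in the other kidney libraries. All 4 adrenal cortex markers were called up in IgGK against WTK, with a summed level of 6.002 to 6.74 CPM in WTK, 14.3 to 635 in IgGK and 5.43 to 7.64 in LepK, and Cyp11b1 and Cyp21a1 at 0 in WTK. Of 6 hepatocyte markers, of which kidney itself makes Cyp2e1 and Ttr, 1 rose and 1 fell, against 21.7% and 15.6% of all tested genes. Their summed level was 3378 to 3702 CPM in WTK, 1058 to 1420 in IgGK and 1914 to 2544 in LepK. The part of these transcripts in the results was not tested, and values without the libraries are given below. Kidney labels were borne out by the loop and duct markers Umod, Slc12a1 and others (summed level 2857 to 4503 CPM in kidney, 157 to 255 CPM in lung). Lung labels were borne out by the alveolar type 2 marker list, at 6373 to 23377 CPM in lung and 208 to 544 CPM in kidney. Of this list Sftpc and Sftpa1 were at 0 in WTK and LepK. Abca3, named after its values were seen, went the other way, with a mean of 526 CPM in WTK, 192 in IgGL and 293 in LepL.

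Levels of the 8 genes were compared with each other per transcript length, as deposited FPKM (fragment counts scaled to gene length and library size). In WTK the order of mean FPKM was Hnf4a at 168 ± 2.25 (SD, n = 3), Nr1h4 at 70.5 ± 6.10, Pax8 at 10.99 ± 0.708, Esrrg at 8.93 ± 0.404, Pax2 at 6.62 ± 0.421, Klf6 at 5.76 ± 0.559, Sox4 at 2.49 ± 0.0848 and Sox9 at 0.114 ± 0.00301. No neighbours in this order overlapped in their library values. In IgGK, Hnf4a (64.6 ± 5.66 FPKM) and Nr1h4 (35.3 ± 5.92) kept their places at the head, and Klf6 (22.01 ± 1.16) and Sox4 (14.9 ± 0.829) came next, above Pax8 (10.8 ± 0.351), Pax2 (9.58 ± 0.361), Esrrg (6.42 ± 0.585) and Sox9 (3.41 ± 0.168). In LepK the first 3 places were the same, with Hnf4a at 90.1 ± 13.5, Nr1h4 at 44.9 ± 11.03 and Klf6 at 15.5 ± 1.33 FPKM, while Pax2 (10.96 ± 1.26), Sox4 (9.34 ± 2.16) and Esrrg (6.61 ± 0.996) overlapped with their neighbours in that order. The plot of FPKM by library shows the 5 groups side by side.

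**Figure D1:**
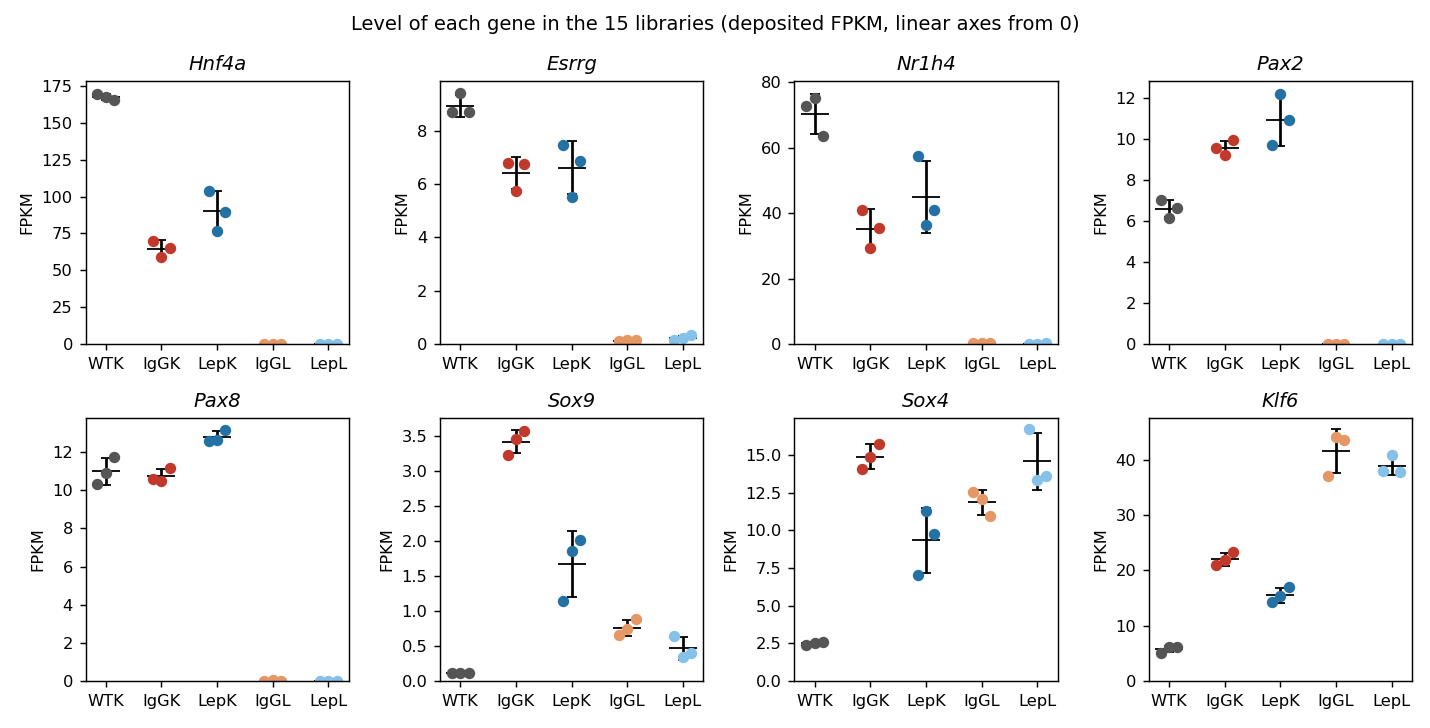
Deposited FPKM of the 8 genes (vertical axes, linear from 0) in the 3 libraries of each of the 5 groups (horizontal axis). Points are libraries, the horizontal mark is the group mean and the bar its SD (n = 3). Hnf4a, Nr1h4 and Esrrg are highest in WTK, Sox9 and Sox4 are lowest there, and Hnf4a, Pax2 and Pax8 are near 0 in lung.

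The first comparison, IgGK with WTK, asks what folic acid injury with control IgG changed. Of the 8 genes, 4 rose (Sox9, Sox4, Klf6 and Pax2) and 2 fell (Hnf4a and Nr1h4), against 21.7% of all tested genes called up and 15.6% called down. A gene was called at an adjusted p under 0.05 and an absolute log2 fold change over 0.5 in edgeR's quasi-likelihood test over 19593 genes. The median log2 fold change was 0.29 over the 8 genes and 0.04 over all genes tested. Groups did not overlap for 7 of the 8 genes and for 62.6% of all tested genes.

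Hnf4a, the hepatocyte nuclear factor that drives proximal tubule genes, had 993, 979 and 962 normalized CPM (counts scaled to library size by the TMM method) in the WTK libraries and 419, 353 and 390 in IgGK. All IgGK libraries lay below all WTK libraries. The log2 fold change was -1.34 ± 0.10 (SE), 2.53-fold lower (edgeR adjusted p = 3.97e-07).

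Nr1h4, the bile acid receptor, had 203, 209 and 177 normalized CPM in WTK and 117, 83.7 and 101.7 in IgGK. These groups did not overlap either, and IgGK replicate 2 was lowest for both receptors. The log2 fold change was -0.96 ± 0.16 (edgeR adjusted p = 0.000186).

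Esrrg, the estrogen-related receptor of mitochondrial and transport genes, had 65.5, 70.5 and 65.1 normalized CPM in WTK and 52.0, 44.2 and 52.1 in IgGK. Every IgGK value was below every WTK value, and the log2 fold change of -0.44 ± 0.10 had an adjusted p of 0.00298 in edgeR but stayed under the fold change threshold, so that Esrrg was not called. With scaling by library size alone it was 0.00062.

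Pax2, the paired-box factor of the forming nephron and collecting duct, had 46.0, 40.4 and 43.5 normalized CPM in WTK and 64.0, 61.9 and 67.0 in IgGK, a log2 fold change of 0.57 ± 0.09 (edgeR adjusted p = 0.000117). The groups were separate, with a gap between the highest WTK and the lowest IgGK library wider than the range within either group. Its relative Pax8 had 75.9, 79.9 and 85.8 in WTK and 79.5, 79.0 and 84.1 in IgGK. The Pax8 groups overlapped, and its log2 fold change was 0.01 ± 0.06 (edgeR adjusted p = 0.955), which changed sign under other scalings and when single libraries were left out.

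Sox9, the repair factor of tubule epithelium, was listed with 14, 14 and 16 counts in WTK and 501, 620 and 634 in IgGK. On the scale of normalized CPM these were 0.582, 0.553 and 0.577 against 16.5, 17.7 and 18.3. The groups lay far apart and the libraries within each were close. The log2 fold change was 4.93 ± 0.24, or 30.5-fold (edgeR adjusted p = 2.86e-08).

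Sox4, a factor of progenitor and stressed epithelium, had 13.96, 14.5 and 14.9 normalized CPM in WTK and 83.4, 88.6 and 93.8 in IgGK. Klf6, a zinc-finger factor induced early after injury, had 27.2, 32.2 and 32.3 in WTK and 114, 119 and 127 in IgGK. Neither gene's groups overlapped. The log2 fold change of Sox4 was 2.62 ± 0.14, 6.13-fold (edgeR adjusted p = 4.63e-08), and that of Klf6 was 1.97 ± 0.09, 3.92-fold (adjusted p = 1.56e-08).

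These 6 calls were also made without IgGK replicates 1 and 2, the libraries with adrenal transcripts, with log2 fold changes of -1.33 for Hnf4a, -0.95 for Nr1h4, 0.63 for Pax2, 4.997 for Sox9, 2.70 for Sox4 and 2.06 for Klf6. Pax2 was not past a test against an absolute log2 fold change of 0.5 itself (adjusted p = 0.228 with edgeR's glmTreat), while the other 5 were.

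Markers of other cells moved with the rise. In IgGK against WTK all 8 macrophage markers were called up, with a summed level of 169 to 188 CPM in WTK and 818 to 1041 CPM in IgGK, and so were all 7 fibroblast markers, from 137 to 193 CPM to 1030 to 1181 CPM. No defining marker of either list was at 0 in all libraries of a group. Against 21.7% of all tested genes called up and 15.6% called down, 7 of 10 lymphocyte markers rose and 1 of 5 endothelial markers fell. Their part in the higher Sox4, Klf6 and Sox9 was not tested.

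The second comparison, LepK with IgGK, asks what LepAb changed in injured kidney. Of the 8 genes 3 fell, Sox9, Sox4 and Klf6, and 0 rose past both thresholds (2 at an unadjusted p under 0.05 in edgeR, Hnf4a and Pax8, where 16.7% of tested genes were that far higher, and 0 called with DESeq2), against 5.99% of tested genes called down and 4.38% called up. The median log2 fold change was 0.09 over the 8 genes and -0.01 over all genes. Groups did not overlap for 5 of the 8 genes and for 37.4% of tested genes. IgGK libraries enter both comparisons, so the direction of one is not independent of the other.

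Sox9 had 5.73, 9.35 and 10.2 normalized CPM in the LepK libraries, against 16.5 to 18.3 in IgGK. All LepK values were below all IgGK values, with LepK replicate 1 lowest. The log2 fold change was -1.06 ± 0.18, 2.08-fold lower (edgeR adjusted p = 0.00197). Its log2 fold change was -1.11 without IgGK replicates 1 and 2, with an adjusted p of 0.0567 in edgeR, no longer called, and without LepK replicate 2 as well it was -1.19 (adjusted p = 0.0305).

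Sox4 had 40.8, 65.9 and 57.3 normalized CPM in LepK against 83.4 to 93.8 in IgGK, a log2 fold change of -0.70 ± 0.13 (edgeR adjusted p = 0.00304). Here too LepK replicate 1 was lowest and the groups were separate. Klf6 had 76.3, 81.8 and 90.9 in LepK against 114 to 127 in IgGK, with a log2 fold change of -0.53 ± 0.08 (adjusted p = 0.00126). Its change was just past the fold change threshold, and it was not called without IgGK replicate 3 (-0.48) or without LepK replicate 1 (-0.47). Sox4 stood at -0.77 (edgeR adjusted p = 0.0447) and Klf6 at -0.61 (adjusted p = 0.0245) when IgGK replicates 1 and 2 were left out.

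Hnf4a had 610, 454 and 527 normalized CPM in LepK against 353 to 419 in IgGK. The groups did not overlap, and LepK replicate 1 was nearest to WTK. The log2 fold change of 0.45 ± 0.10 had an adjusted p of 0.00736 in edgeR and was under the fold change threshold. It passed that threshold without IgGK replicate 1 (0.53) and without LepK replicate 2 (0.56), the library with liver transcripts. Without IgGK replicates 1 and 2 the adjusted p was 0.101 in edgeR, at a log2 fold change of 0.45.

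Pax8 had 92.6, 93.7 and 97.5 normalized CPM in LepK against 79.0 to 84.1 in IgGK, a log2 fold change of 0.23 ± 0.06 (edgeR adjusted p = 0.0268) under the fold change threshold. The groups were separate, and all LepK values were also above the 75.9 to 85.8 of WTK. Nr1h4 had 161, 103 and 115 in LepK against 83.7 to 117 in IgGK, with a log2 fold change of 0.32 ± 0.15 (adjusted p = 0.166). Pax2 had 63.8, 80.8 and 72.4 in LepK, with 0.17 ± 0.09 (adjusted p = 0.193), and Esrrg 56.4, 41.8 and 52.0, with 0.02 ± 0.10 (adjusted p = 0.926), and for these 3 genes LepK and IgGK overlapped.

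None of the 3 calls held in a test against an absolute log2 fold change of 0.5 itself. There edgeR's glmTreat gave adjusted p = 0.0713 for Sox9, 0.383 for Sox4 and 0.997 for Klf6. The same markers of other cells were lower in LepK than in IgGK. Of 8 macrophage markers 7 fell, to a summed level of 374 to 508 CPM, and of 7 fibroblast markers 6 fell, to 387 to 617 CPM. Of all tested genes 5.99% were called down and 4.38% up. Of 7 loop and duct markers 4 rose, from 2857 to 3359 CPM in IgGK to 4116 to 4503 CPM in LepK. No marker of these 3 lists was at 0 throughout a kidney group, and their part in the lower Sox9, Sox4 and Klf6 or the higher Hnf4a and Pax8 was not tested.

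The third comparison, LepK with WTK, shares its libraries with the other kidney comparisons and gives the distance of LepAb-treated injured kidney from vehicle kidney. Pax2, Sox9, Sox4 and Klf6 were called higher in LepK, 4 of 8 against 15.2% of tested genes, and Hnf4a and Nr1h4 lower, 2 of 8 against 7.3%. The log2 fold changes were 3.87 ± 0.25 for Sox9, 1.92 ± 0.14 for Sox4, 1.44 ± 0.09 for Klf6 and 0.74 ± 0.09 for Pax2. Hnf4a stood at -0.88 ± 0.10 and Nr1h4 at -0.64 ± 0.15. The Nr1h4 call was lost without IgGK replicates 1 and 2 and LepK replicate 2 (-0.49, edgeR adjusted p = 0.00941), with scaling by library size (-0.38) and with glmTreat (adjusted p = 0.339). Esrrg (-0.42 ± 0.10, edgeR adjusted p = 0.00637) and Pax8 (0.23 ± 0.06, adjusted p = 0.0130) were under the fold change threshold, and LepK and WTK did not overlap for any of the 8 genes, nor for 50.2% of tested genes. The plot of fold changes sets the 3 kidney comparisons side by side.

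**Figure D2:**
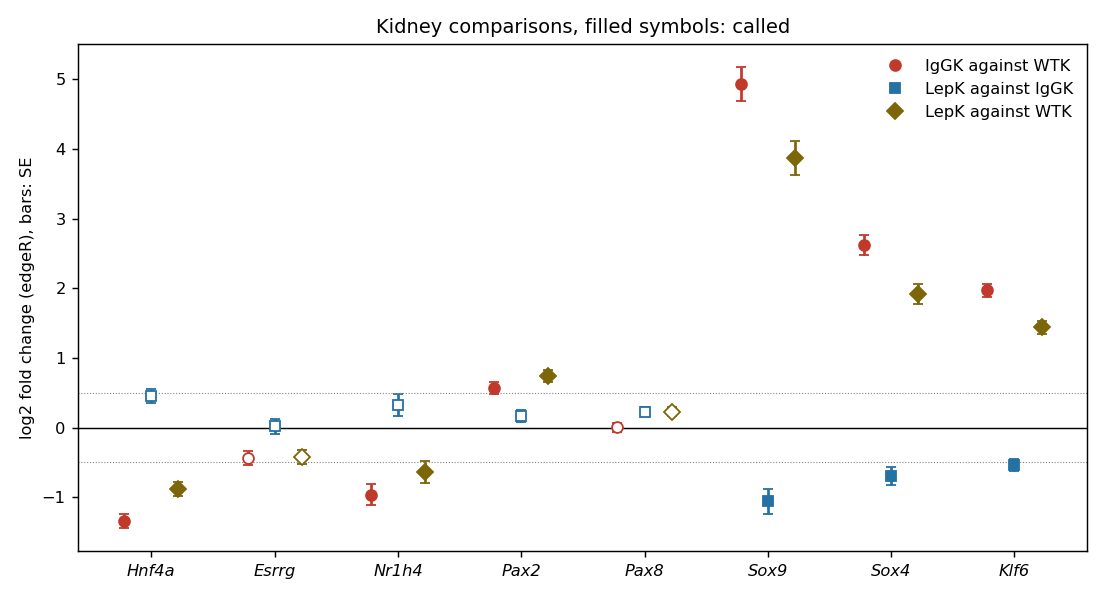
Log2 fold change of each gene in the 3 kidney comparisons (vertical axis, edgeR), with bars for 1 SE and dotted lines at -0.5 and 0.5. Filled symbols are called genes. Sox9, Sox4 and Klf6 lie above 0 against WTK and below 0 in LepK against IgGK, and Hnf4a and Nr1h4 lie below 0 against WTK.

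Ratios of 2 genes within a library do not depend on how libraries were scaled to each other. The FPKM of Sox9 was 0.0683, 0.0660 and 0.0700% of that of Hnf4a in the WTK libraries, 4.602, 5.87 and 5.49% in IgGK and 1.096, 2.41 and 2.26% in LepK. The 3 groups were separate, with LepK between the others. The ratios of Sox4 to Hnf4a (1.41 to 1.56% in WTK, 20.03 to 25.3% in IgGK, 6.74 to 14.6% in LepK) and of Klf6 to Hnf4a (3.02 to 3.70%, 29.9 to 37.0% and 13.8 to 19.8%) were ordered the same way. Esrrg to Hnf4a went from 5.12 to 5.601% in WTK to 9.65 to 10.4% in IgGK and 7.17 to 7.67% in LepK, since Hnf4a fell by more than Esrrg. Nr1h4 to Hnf4a was 38.5 to 44.8% in WTK, 49.7 to 58.6% in IgGK and 45.8 to 55.2% in LepK, where IgGK and LepK overlapped. Sox9 was 4.42 to 4.83% of Sox4 in WTK, 22.7 to 23.2% in IgGK and 16.3 to 20.6% in LepK, so that even the 2 SOX genes did not move in proportion. Pax2 was 56.6 to 67.9% of Pax8 in WTK and 87.9 to 90.2% in IgGK, and LepK, at 77.2 to 96.6%, overlapped with IgGK only.

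**Figure D3:**
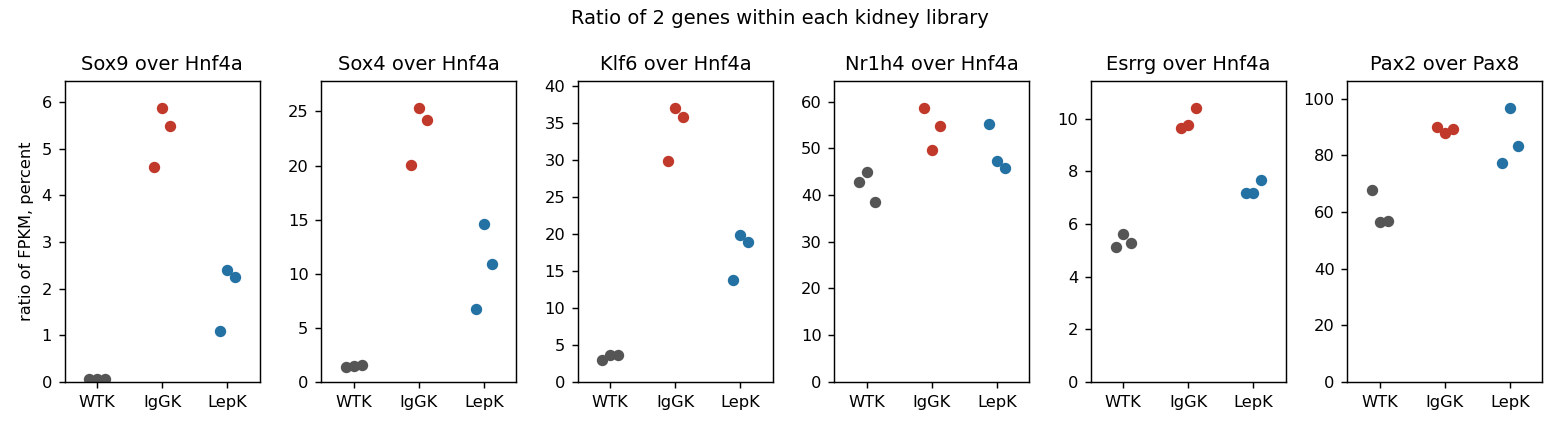
FPKM of 1 gene as a percent of that of another within each kidney library (vertical axes, linear from 0), by group (horizontal axis, 3 libraries each). The ratios of Sox9, Sox4, Klf6 and Esrrg to Hnf4a separate the 3 groups, with LepK in the middle, while IgGK and LepK overlap for Nr1h4 over Hnf4a and for Pax2 over Pax8.

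The members were also compared by their pattern over the 9 kidney libraries, as the root mean square difference between log2 CPM values centred on each gene's mean. The values were not scaled, so the distance reflects how far genes moved as well as the shape, and genes that moved little can lie close. Among the 8 genes the closest pair was Hnf4a and Nr1h4, at 0.18, and the farthest was Hnf4a and Sox9, at 2.30. Pax2 and Pax8, whose values ranged over 0.99 and 0.36 on the log2 scale, differed by 0.27, and Sox4 and Klf6 by 0.30. Among 13819 protein-coding genes with a mean of at least 1 CPM, Pdzd2 (0.04) was nearest to Hnf4a, Galnt1 (0.06) and Znrf2 (0.07) to Nr1h4, and Snx1 (0.04) and Tbc1d1 (0.04) to Esrrg. Mapk15 (0.06) and Phactr1 (0.08) were nearest to Pax2, and Vps16 (0.05) and Cnn3 (0.06) to Pax8. Spp1, which encodes the injury-induced matrix protein osteopontin, was nearest to Sox9 (0.07), followed by Arhgap36 (0.14), a gene with mean CPM of 0 in WTK. The pseudocount of 0.5 CPM in these log2 values is near the Sox9 mean in WTK (0.570 CPM) and narrows its change. In edgeR the log2 fold change in IgGK against WTK was 4.93 for Sox9 and 4.03 for Spp1. These 2 distances therefore depend on the pseudocount. Sox4 was nearest to Cd33 (0.07), a myeloid receptor, and to Tnfsf13b (0.10), the B cell factor BAFF, and Klf6 to Clu (0.10), which encodes clusterin, and Gem (0.11). These distances are a description over 9 libraries of 3 groups and carry no test.

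Other genes of the same regulatory layers were read from lists. For all tested genes the shares were 21.7% up and 15.6% down in IgGK against WTK. In LepK against IgGK they were 4.38% up and 5.99% down. Of 11 proximal and metabolic regulators 8 fell in IgGK against WTK and 1 rose, with a median log2 fold change of -0.86. Hnf4g, the paralog of Hnf4a, had a log2 fold change of -0.49 and was not called. Cebpa was the gene that rose, by 0.94, and it was named after its values were seen. In LepK against IgGK 1 of the 11 rose, Esrrb (0.97), also named after the values were seen, and Hnf4g (0.23) was not called.

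Among 17 tested distal, duct and developmental regulators 4 rose and 3 fell in IgGK against WTK, with a median of -0.06. These counts are near the shares of all tested genes, 21.7% up and 15.6% down. Tfcp2l1, a factor of the collecting duct and distal nephron, stood at 0.05 and Tfap2b, of the distal nephron, at 0.29, and neither was called. Gata3, of the duct lineage, rose by 0.51. In LepK against IgGK 2 of the 17 rose, Lhx1 (0.58) and Emx1 (0.63), against 4.38% of all tested genes. Lhx1 and Emx1 were among those that fell after injury and are named after their values were seen.

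Of 20 tested injury and repair regulators 17 rose in IgGK against WTK (median 1.44). Sox11, a SOX factor of the same subgroup as Sox4, rose by 4.27, Runx1 by 3.13 and the stress factor Atf3 by 3.44. In LepK against IgGK 6 of the 20 fell (median -0.41), among them Sox11 (-0.81, edgeR adjusted p = 0.0444), Runx1 (-0.82) and Atf3 (-1.07). Without IgGK replicates 1 and 2 the number was 0, and 3 when LepK replicate 2 was left out as well.

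The families of the members did not move as whole families. Of 7 other PAX genes Pax5 and Pax9 were high enough to be tested and neither was called by edgeR or DESeq2 in LepK against IgGK (0 at an unadjusted p under 0.05), and Pax1, Pax3 and Pax4 were at 0.0413 CPM or less in each kidney group. Of 11 tested other SOX genes 3 rose in IgGK against WTK, Sox5 (0.91), Sox8 (3.18) and Sox11, against 21.7% of all tested genes. In LepK against IgGK Sox10 (-1.86) and Sox11 fell, against 5.99% of all tested genes. Sox10 was near the floor, at 0.889 ± 0.427 CPM (SD) in IgGK and 0.245 ± 0.109 in LepK. These genes were named after their values were seen, apart from Sox11. Sox1, Sox2 and Sox3 were not tested. Of 14 tested other KLF genes 6 rose and 4 fell after injury, against 21.7% of all tested genes called up and 15.6% called down. Klf2 rose by 0.57 and Klf1 fell by 1.03, and Klf3 stood at 0.20. Klf15, a podocyte and metabolic factor that fell by 1.58 after injury, was the single other KLF gene called in LepK against IgGK, where it rose by 0.81, and it was named after its values were seen.

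Targets of the receptors were read in the same way. All 18 proximal tubule differentiation genes fell in IgGK against WTK (median -1.52), with a summed level of 32490 to 34095 CPM in WTK and 9898 to 12368 CPM in IgGK. The phosphate transporter Slc34a1 fell by 2.05, the glucose transporter Slc5a2 by 2.76 and the endocytic receptor Lrp2 by 1.53. In LepK against IgGK 12 of the 18 rose (median 0.59), Slc34a1 by 0.88, Slc5a2 by 1.02 and Lrp2 by 0.56, to a summed level of 16423 to 20083 CPM. The number was 8 without IgGK replicates 1 and 2.

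Of 6 tested FXR target genes 3 fell after injury, the bile acid exporter subunits Slc51a (-0.78) and Slc51b (-0.92) and the transporter Abcc2 (-0.85), which was named after its values were seen. Nr0b2, the direct FXR target SHP, stood at -0.22 with about 1 CPM, and none of the 6 was called in LepK against IgGK. At an unadjusted p under 0.05 the edgeR count there was 4, all higher in LepK, against the 16.7% of all tested genes given above, and DESeq2 called 0.

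Of 12 estrogen-related receptor targets 10 fell after injury (median -0.85), against 15.6% of all tested genes. Esrrg itself was lower but under the fold change threshold. Among the proximal and metabolic regulators, Esrra (-0.89), Esrrb (-1.21) and Ppargc1a (-0.77) were called down, and Ppargc1b (-0.41) was not called. These regulators are named after their values were seen. Acadm, an enzyme of fatty acid oxidation, fell by 0.83 and Cycs, cytochrome c, by 1.22, while Pdk4, the pyruvate dehydrogenase kinase, rose by 1.71. In LepK against IgGK 3 of the 12 rose, among them Acadm (0.57), and 1 did without IgGK replicates 1 and 2. Mitochondrial counts moved with these genes in the same direction, as given above, and their part was not tested.

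Of 15 injured tubule genes 14 rose in IgGK against WTK (median 3.11). Havcr1, which encodes the injury marker KIM-1, rose by 6.99, Lcn2 by 5.25 and Vcam1 by 4.77. In LepK against IgGK 10 of the 15 fell (median -0.63), Havcr1 by 1.16, Lcn2 by 1.36 and Vcam1 by 0.89. Without IgGK replicates 1 and 2 the number was 4, and without LepK replicate 2 as well it was 6. The plot of called shares sets the lists side by side.

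**Figure D4:**
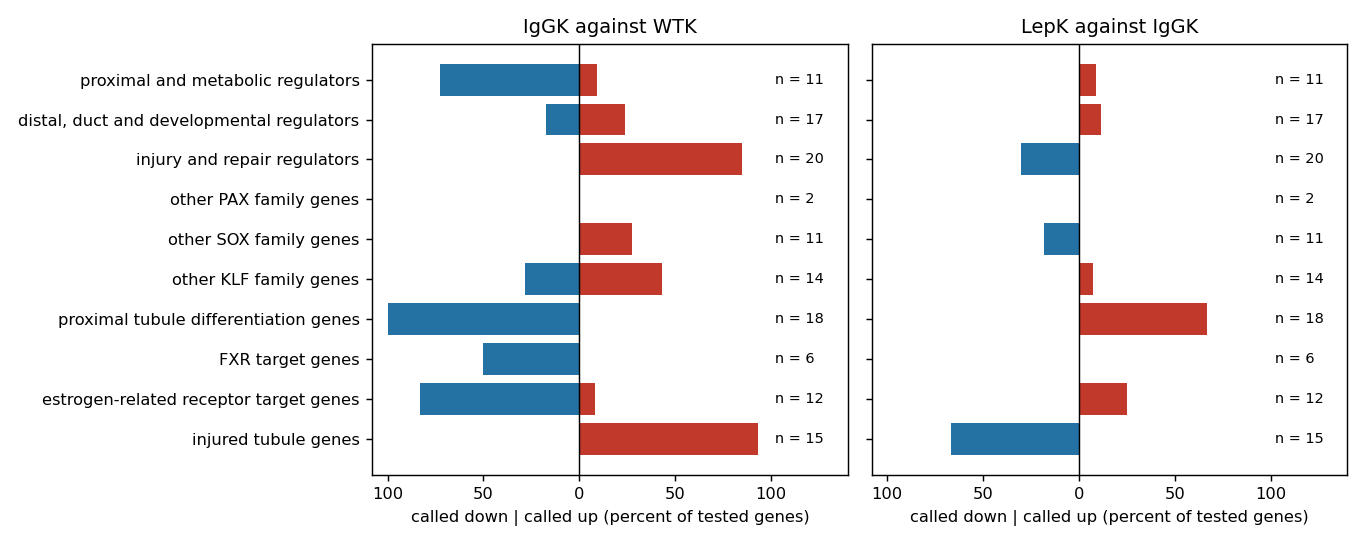
Share of the tested genes of each list that was called up (red, to the right) or down (blue, to the left), in percent, in IgGK against WTK and LepK against IgGK. Numbers at the right give the genes tested. Proximal tubule differentiation genes are all called down after injury and 12 of 18 are called up in LepK, and injured tubule genes show the opposite directions.

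Reads of overlapping genes cannot be told apart by strand in these non-directional libraries. Hnf4aos, a noncoding RNA on the opposite strand of Hnf4a, had 371 to 768 counts in kidney. Its level dropped by 1.06 (log2) between WTK and IgGK (edgeR adjusted p = 1.49e-05) and rose by 0.78 in LepK against IgGK (adjusted p = 0.00141), the second past the fold change threshold that Hnf4a did not pass. Noncoding genes overlapping Esrrg, Pax2 and Pax8 had at most 60, 57 and 28 counts in kidney. No gene overlapped Nr1h4, Sox9, Sox4 or Klf6.

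In lung the order of mean FPKM was led by Klf6, at 41.6 ± 3.98 in IgGL and 38.9 ± 1.76 in LepL, and Sox4, at 11.9 ± 0.820 and 14.6 ± 1.90. Sox9 followed at 0.762 ± 0.114 and 0.463 ± 0.158 FPKM. Nr1h4 (0.396 ± 0.0894 and 0.206 ± 0.0409) and Esrrg (0.135 ± 0.0291 and 0.246 ± 0.0773) were low. Hnf4a had 17, 4 and 19 counts in IgGL and 8, 9 and 2 in LepL, and Pax2 had 2, 0 and 6 in IgGL and 0 in all LepL libraries. Pax8 had 12 counts in IgGL replicate 2, where its overlapping noncoding gene Gm13415 had 66, and 0 to 4 in the other lung libraries. Hnf4a, Pax2 and Pax8 were therefore too low to test within lung.

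Of the 5 genes tested in LepL against IgGL none was called, against 4.14% of all tested genes called in either direction by edgeR. At an unadjusted p under 0.05 the count was 4, against 27.3% of tested genes. The log2 fold changes were 0.83 ± 0.36 for Esrrg, -0.97 ± 0.40 for Nr1h4, -0.76 ± 0.30 for Sox9 and 0.26 ± 0.11 for Sox4, with adjusted p between 0.146 and 0.181 (edgeR). These 4 genes did not overlap between the lung groups, nor did 33.3% of tested genes. Klf6 stood at -0.13 ± 0.11 and overlapped. DESeq2 called 0 of the 5. When kidney and lung libraries shared 1 fit, which estimates the spread from all 15 libraries, 3 of these 5 genes were called, Esrrg (0.86), Nr1h4 (-0.94) and Sox9 (-0.75). The 4.14% above belongs to the separate lung fit. The share of all genes called in the shared fit is not given here, so whether this count is unusual cannot be told. Pax2 was called there as well, but it passed that fit's filter through kidney alone, with 8 counts in IgGL and 0 in LepL.

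IgGK and IgGL, the IgG-treated injured kidney and lung, differ in organ, injury and day at once, which cannot be told apart. Of the 5 genes tested within both organs 3 were higher in kidney, against 25.4% of 17735 such genes (26.3% of all tested genes), and Klf6 was lower, against 24% (24.2% of all tested genes). Nr1h4 was 89.8-fold and Esrrg 47.9-fold higher in kidney, and Sox9 4.51-fold higher, although Sox9 in vehicle kidney (0.114 FPKM) lay below both lung groups. Hnf4a, Pax2 and Pax8 were also called higher, but they passed the filter through kidney alone, so that their calls followed from it. Hnf4a was higher by 10.17 ± 0.34 on the log2 scale, from 40 counts in all 3 lung libraries. Pax2 and Pax8 had 8 and 12 counts in all over IgGL, and no fold is given. Klf6 was 1.88-fold lower in kidney (edgeR adjusted p = 2.98e-06), and Sox4 differed by 0.34 ± 0.14 (adjusted p = 0.0519), not called.

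The antibody effect itself was compared between kidney and lung as the difference of both log2 fold changes. It was called for 2 of the 8 genes, Nr1h4 and Sox4, against 7.12% of tested genes called in either direction. For Nr1h4 the signed difference was 1.30 ± 0.36 (edgeR adjusted p = 0.0441), with a positive log2 fold change in kidney and a negative one in lung. Levels were 117 to 188 CPM in LepK, here normalized over the 12 injured libraries, against 93.7 to 132 in IgGK. In lung they were 0.558 to 0.792 in LepL against 0.92 to 1.49 in IgGL. For Sox4 the log2 fold change was lower in kidney by 0.93 ± 0.20 (difference -0.93, adjusted p = 0.0207), with levels of 47.7 to 75.4 in LepK against 94.2 to 106 in IgGK, and of 87.4 to 109 in LepL against 74.0 to 82.0 in IgGL. The Nr1h4 call was lost in 9 of the 12 fits that left out 1 library, with an adjusted p of 0.0578 to 0.114 (edgeR), and was kept without IgGK replicate 1, LepK replicate 2 or IgGL replicate 1. The Sox4 call was lost without IgGK replicate 2 (0.0525) or IgGL replicate 2 (0.0520).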

How the data were processed

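Poly(A)-enriched, non-directional libraries of 15 mouse kidney and lung samples were sequenced by the study, and the authors deposited 1 table of gene counts and FPKM per library. The submitters' processing notes name GRCm39 and DESeq2, and the aligner and counter are not given in the sources used here. The deposited FPKM values were used to compare levels between genes and for the plotted levels, and not for tests, and the implied library sizes were 1.02 to 1.46 times the total counts, so they are not per total count alone. Columns of group means, fold changes and p-values of the authors' own comparisons were not used. The number of count columns that could not be matched to a sample was 0.

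Counts were tested with edgeR 4.0.16 in R 4.3.3 (TMM factors, filterByExpr with a minimum count of 10 and total of 15, glmQLFit and glmQLFTest, Benjamini-Hochberg adjustment over all genes tested). Kidney (9 libraries, 19593 genes), lung (6 libraries, 19617 genes) and the 12 injured libraries (21488 genes) were fitted separately, with group means and no covariates. Genes were called at an adjusted p under 0.05 with an absolute log2 fold change over 0.5, and the difference of antibody effects at the adjusted p alone. DESeq2 1.42.0 was an alternative. Centred log2 CPM used a pseudocount of 0.5 CPM. The functions were tested on simulated counts. The same replicate numbers occur in every group, but not every same-numbered pair deviated together, so no block was used.

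Groups came from the sample titles, and doses, days and ages from the study's methods, which give the antibody dose for kidney as a range. A further line of the sample descriptions often names another condition than the title and was not used. The genes named are the 8 members, the first 3 genes of each list, the 2 protein-coding genes with the nearest kidney pattern to each member and genes overlapping a member, and any others are marked. Some genes that this rule names are not reported here. The members and lists were chosen with earlier results of these data known. Promoter sequences were taken from RefSeq. At these depths 1 count was worth 0.0257 to 0.0386 CPM.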

Additional observations from a re-analysis of the deposited data

Results flagged for a closer look

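The antibody effect differed between kidney and lung for 2 of the 8 genes, by a test of the difference itself. For Nr1h4 the signed difference, kidney minus lung, was 1.30 on the log2 scale (edgeR adjusted p = 0.0441). With LepAb the log2 fold change was 0.32 ± 0.15 in kidney and -0.97 ± 0.40 in lung, and neither effect was called on its own. Its lung counts were 35 to 53 in IgGL and 18 to 33 in LepL. Sox4 had a difference of -0.93 (edgeR adjusted p = 0.0207), with a called fall in kidney (-0.70 ± 0.13) and an uncalled value in lung (0.26 ± 0.11), at 2342 to 3119 counts in IgGL and 3140 to 3688 in LepL. Injury, organ and day differ between the kidney and lung arms and cannot be told apart.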

How the results depend on the processing

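The 8 genes gave 45 tested log2 fold changes over 6 comparisons, and 724 of 778 alternative values kept direction and side of the thresholds, while 21 lost a call, 19 gained one and 14 changed sign. The number of members called stayed within 1.5 times of the reported one in every alternative for IgGK against WTK (5 to 7), LepK against WTK (5 to 8) and IgGK against IgGL (7). For LepK against IgGK it was 0 with glmTreat and 5 with no fold change threshold, and 2 to 4 when 1 library was left out. For LepL against IgGL it was 4 with kidney and lung in 1 fit, with Pax2 among them, and otherwise 0. For the difference of antibody effects it was 4 with scaling by library size, 5 with no filter and 0 to 2 when 1 library was left out, with 0 without IgGK replicate 2.

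Changes of sign occurred in values that were not called. Pax8 in IgGK against WTK was -0.00075 with RLE scaling and -0.00097 with DESeq2, and ranged from -0.033 to 0.054 over fits that left out 1 library. With scaling by library size, Esrrg was 0.00062 and Nr0b2 0.23 in IgGK against WTK. For LepK against IgGK the same scaling gave -0.16 for Esrrg, -0.0058 for Pax2, -0.11 for Tfcp2l1, -0.0031 for Tfap2b and -0.0045 for Gata3. It also set the median over all genes tested at 0.48 after injury and -0.19 for LepAb, and the genes called up and down at 7803 and 1178 (4253 and 3057 with TMM) and at 408 and 2185 (858 and 1174 with TMM). Esrrg in LepK against IgGK ranged from -0.073 to 0.13, and Pdk4 from -0.55 to 0.062, when 1 library was left out. Without IgGK replicates 1 and 2 these genes stood at -0.047 and 0.22, and Pdk4 at 0.28 without LepK replicate 2 as well. In the difference of antibody effects, leaving out 1 library gave -3.38 (without IgGL replicate 2) to 3.03 for Pax8 and -0.44 to 0.023 (without LepL replicate 1) for Sox9. The causes were not tested.

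Leaving out IgGK replicates 1 and 2, with or without LepK replicate 2, was chosen after seeing the data, and the lone IgGK library is then assumed to vary like the others. Fits with the replicate number as a block called 6 members in the injury comparison and 3 for LepAb in kidney, and the block lowered the lung calls over all genes from 812 to 4. Same-numbered libraries had deviations correlated from -0.097 to 0.23. Between IgGK and LepK the correlation was 0.23 for number 1, 0.22 for number 2 and -0.049 for number 3, so 2 of these 3 pairs deviated together, and the numbers are not treated as pairs because not every pair did. Restricting lung to its own groups is the reported fit. Lung counts were at most 53 for Nr1h4 and at most 19 for Hnf4a, Pax2 and Pax8, the last 3 being too low to test there.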

Other observations

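Other cell types of the kidney moved unevenly after injury. Foxj1, the master factor of ciliated cells, was 0.163 CPM in WTK and 8.54 in IgGK (log2 fold change 5.64) and stood at -0.82 in LepK against IgGK, not called, while the secretory airway genes Scgb1a1 and Scgb3a2 were too low to test in kidney. Of the podocyte genes Nphs1 stood at -0.07 and Podxl at -0.16 after injury, not called. T cell transcripts rose, Cd3e by 2.81, Cd3d by 2.25 and Cd3g by 2.55, and in LepK against IgGK Cd3d fell by 1.14 while Cd3e (-0.41) and Cd3g (-0.61) were not called.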
